A study of Mus musculus with 16 samples.

Results

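Interferon response genes are the receptors, signalling proteins, transcription factors and antiviral effectors through which a cell detects interferon and answers it. Here 38 of them, chosen by symbol from 21951 protein-coding genes of the GRCm38 annotation, were examined for open chromatin in mouse B cells that lack Brg1, the ATPase of the BAF chromatin remodelling complex encoded by Smarca4. For each member, a promoter peak was an ATAC-seq peak overlapping a window that starts 1000 bp before and ends 100 bp after an annotated start site, and other peaks within the gene were counted apart as body peaks. Overlapping peaks of the libraries were joined into 16566 combined regions, of which 9779 lay at promoters of protein-coding genes and 32 of these at promoters of members.

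All 8 libraries came from splenic B cells of C57BL/6 mice, isolated by magnetic separation and activated in culture with IL-4 (20 ng/mL) and LPS (10 µg/mL), a bacterial endotoxin, and each library used 50000 cells. The 4 Brg1fl/+ CD23Cre +/- libraries (Brg1fl/+ below) carry 1 deleted Smarca4 allele and the 4 Brg1fl/fl CD23Cre +/- libraries (Brg1fl/fl) carry 2, so the control cells also carry Cre and a deleted allele. CD23-Cre acts in mature B cells, so Smarca4 was intact during early B cell development. The sample labels give 72 h of culture and the series design gives 96 h, and the number of mice behind each genotype is not stated. The names of the deposited lists group replicates 1 and 2 and replicates 3 and 4 of each genotype, and what the grouping stands for is not given. The 4 libraries of a genotype may therefore stand for 2 independent samples, and the spread between libraries, with every p-value built on it, may be technical. The 8 RNA-seq libraries of the series were not analysed here.

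Type I interferon binds the Ifnar1 and Ifnar2 receptor chains, the kinases Tyk2 and its partner phosphorylate STAT proteins, and Stat2 together with Irf9 is carried to the interferon-stimulated response element (ISRE) of target promoters. Interferon gamma signals through Ifngr1, Ifngr2 and Jak2 to STAT dimers that bind the gamma-activated site (GAS). In B cells, endotoxin is sensed through a Toll-like receptor that can also induce interferon, and interferon regulatory factors (IRFs) act both in antiviral defence and in B cell activation.

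The ISRE letters are shown first because they were the sequence feature that set member promoters furthest apart from other promoters among the motifs searched. The motif GAAANNGAAA, searched on both strands, lay within 100 bp of the summit of 11 of 32 member promoter regions (34.4%), against 148 of 9777 promoter regions of all protein-coding genes on named chromosomes (1.51%). With every list shortened to its 6271 best peaks, it lay in 4 of 20 member regions (20%), against 1.13% of all. The sequences are from GRCm38.p6, read 5′ to 3′ on the strand of the gene, with the ISRE letters in capitals. They belong to members with an ISRE near the summit and, in the closing lines, to Stat2 and Isg15, whose ISRE lies in the RefSeq promoter. The Stat2 ISRE is not within 100 bp of a summit, and Isg15 had no promoter peak and so no summit. Ifit3 and Oas3, also without a promoter peak, hold such an ISRE too and are not printed.
Trim21 (chr7:102565450-102565479, minus strand): cctctgagagGAAACTGAAAgtgaaatttg
Bst2 (chr8:71537577-71537606, minus strand): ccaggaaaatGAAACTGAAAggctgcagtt
Irf2 (chr8:46739494-46739523, plus strand): gtggggaagtGAAAATGAAAttgacttttc
Ifih1 (chr2:62646204-62646233, minus strand): gaagagaatcGAAACAGAAAccgatctgtg
Zbp1 (chr2:173218949-173218978, minus strand): aaagtttcatTTTCTCTTTCtttgaaaagc
Ifit1 (chr19:34640794-34640823, plus strand): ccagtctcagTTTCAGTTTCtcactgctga
Usp18 (chr6:121245837-121245866, plus strand): ggatctagggGAAAACGAAAgcttggcggt
Rsad2 (chr12:26456553-26456582, minus strand): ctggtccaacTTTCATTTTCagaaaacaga
Eif2ak2 (chr17:78882535-78882564, minus strand): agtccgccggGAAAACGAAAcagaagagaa
Ddx58 (chr4:40239804-40239833, minus strand): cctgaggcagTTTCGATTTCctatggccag
Parp9 (chr16:35938962-35938991, plus strand): agaggcaaagTTTCAGTTTCgattccccag
Stat2 (chr10:128270266-128270295, plus strand): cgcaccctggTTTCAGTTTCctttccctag
Isg15 (chr4:156200865-156200894, minus strand): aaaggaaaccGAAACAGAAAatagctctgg

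Each deposited peak carries a fold, the pileup of fragments at its summit over the local background expected there. The lists held 6271 to 14614 peaks and the background recovered from fold and p-value was 2.76 to 6.89 fragments per kb, without a detectable difference between genotypes (exact permutation test, two-sided, 70 assignments, p = 0.457 and p = 0.314, n = 4). At these backgrounds a peak needed at least 5 to 8 fragments, so a promoter without a peak was below the caller's limit and not shown to be closed. The narrowest peak of a list was 195 to 204 bp in Brg1fl/+ and 231 to 243 bp in Brg1fl/fl (exact permutation p = 0.0286, the smallest that 4 against 4 libraries can give), so a narrower opening could be listed in Brg1fl/+ only. The Smarca4 promoter had a peak in all 8 libraries at a fold of 12.5 to 16.0, which lies outside the deleted exons and does not check the deletion. Among B cell markers, Ms4a1 and Pax5 had a promoter peak in all 8 libraries, Cd79a and Ebf1 in some, and Cd79b, Blk and Cd22 in none. T cell markers had a promoter peak for 1 of 6 genes, in Brg1fl/+ replicate 1 only, markers of myeloid (6), NK (3) and erythroid (4) cells for none, and plasmacytoid dendritic cell markers for 1 of 4, Tcf4, in all 8. In a bulk sample, fewer cells with an open promoter and a less open promoter in every cell cannot be told apart.

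A promoter peak was found for 31 of the 38 members in at least 1 library. The receptors and transcription factors were detected in most libraries, while most sensors, effectors and ISG15 regulators were detected in few. The 9 members with a promoter peak in all 8 libraries (29% of the 31, beside 46.7% of the 10489 detected protein-coding genes) were Ifnar1, Ifngr1, Ifngr2 and Jak2 of the receptor group, the transcription factors Irf1, Irf2, Irf3 and Irf9, and Samhd1, a dNTP hydrolase that limits viral replication. The 7 members without a promoter peak in any library were Dhx58, an RNA helicase that modulates RNA sensing, the ubiquitin-like modifier Isg15, Ifit3, the oligoadenylate synthetases Oas2 and Oas3, the ADP-ribosyltransferase Parp14, and Ifi35.

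**Figure D1:**
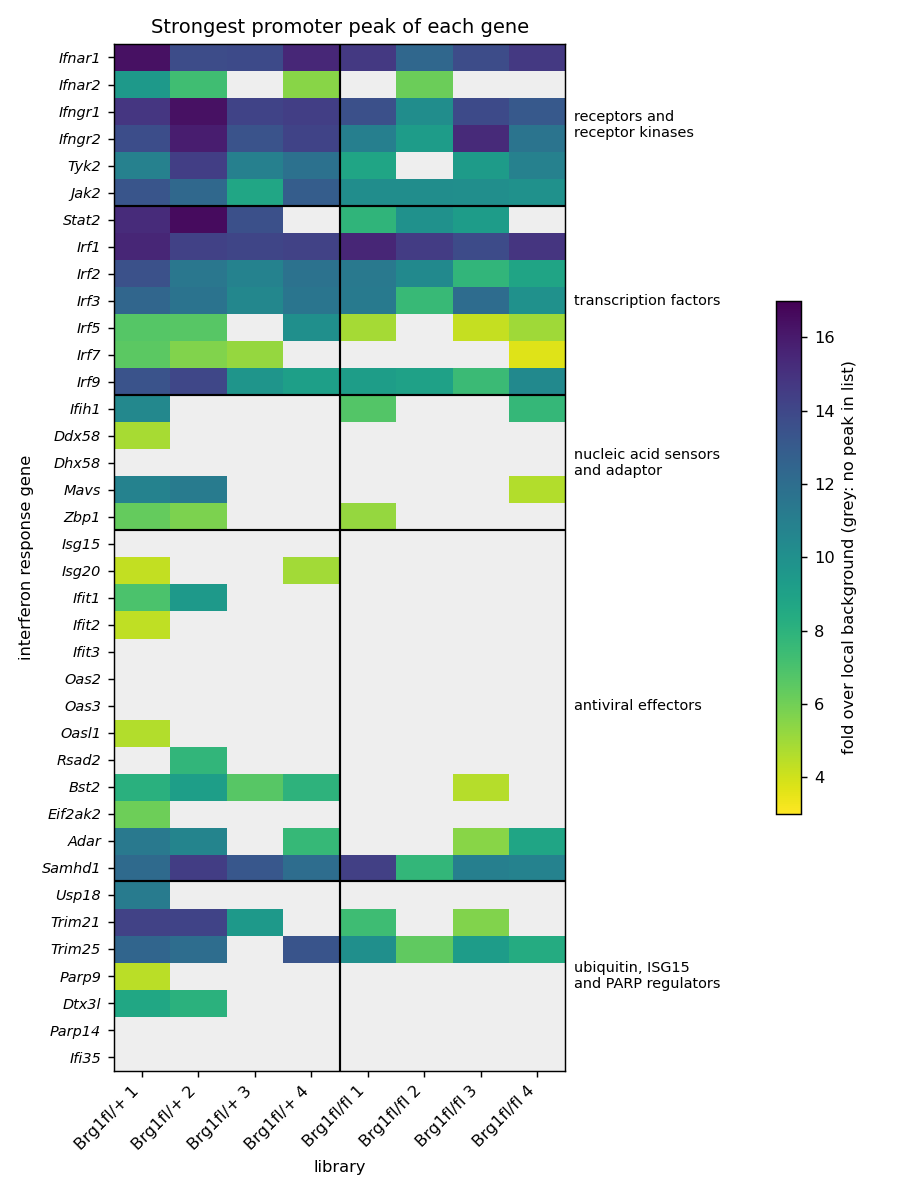
Fold over local background of the strongest promoter peak of each of the 38 interferon response genes (rows, grouped by role) in each of the 8 libraries (columns), with grey for no peak in the list. The receptors and transcription factors in the upper rows carry peaks in nearly every column, whereas many effectors carry peaks in Brg1fl/+ replicates 1 and 2 only.

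Members with a promoter peak numbered 30, 23, 14 and 16 in Brg1fl/+ replicates 1 to 4 and 16, 12, 16 and 16 in Brg1fl/fl replicates 1 to 4, with means of 20.8 ± 7.27 and 15.0 ± 2.00 (SD, n = 4). Brg1fl/+ replicates 1 and 2 lay above every Brg1fl/fl library, while Brg1fl/+ replicates 3 and 4 lay within the Brg1fl/fl range. The mean difference, Brg1fl/fl minus Brg1fl/+, was -5.75 genes and -2.67 genes without Brg1fl/+ replicate 1, and among replicates 3 and 4 alone the mean was 15.0 in Brg1fl/+ and 16.0 in Brg1fl/fl. When every list was shortened to its 6271 best peaks, the means were 14.8 and 12.5. The ranges were then 14 to 16 in Brg1fl/+ and 12 to 13 in Brg1fl/fl and did not overlap. The share of all genes at this list length is not given here.

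These numbers moved with those of all genes. A promoter peak was present for 46.9, 42.1, 27.9 and 32.4% of all protein-coding genes in Brg1fl/+ replicates 1 to 4 and for 36.3, 27.0, 35.1 and 35.6% in Brg1fl/fl replicates 1 to 4. The share of members exceeded the share of all genes in every library. The excess was 8.98 to 32.03 percentage points in Brg1fl/+ and 4.56 to 6.99 in Brg1fl/fl, so the ranges did not overlap, although Brg1fl/+ replicates 3 (8.98) and 4 (9.69) were close to the Brg1fl/fl libraries. The part of list length in this excess was not tested.

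Gene by gene, 18 of the 31 detected members (58.1%) had a promoter peak in more Brg1fl/+ than Brg1fl/fl libraries, against 32.2% of all detected genes. The reverse held for 2 members (6.45%, all genes 11.3%), Ifih1 and Trim25. Peaks in Brg1fl/+ libraries only were found for 10 members (32.3%, all genes 17.1%), and 6 of these rested on Brg1fl/+ replicate 1 alone (19.4% of detected members, all genes 8.48%). No member had a promoter peak in Brg1fl/fl libraries only (all genes 0.486%). Counted by region, 19 of 32 were detected in fewer Brg1fl/fl libraries (59.4%, all promoter regions 36.3%) and 2 in more. These were 12 and 4 of 25 without Brg1fl/+ replicate 1 and 7 and 2 of 20 at equal list length. In replicates 3 and 4 alone they were 3 and 5 of 21, so the direction turned. There the Brg1fl/+ lists were shorter (6372 and 7632 peaks against 8500 and 8605). They also held a promoter peak for fewer of all genes (27.9 and 32.4% against 35.1 and 35.6%). The shares of all promoter regions under these settings are not given here. Of the 32 member regions, 11 were listed in Brg1fl/+ only (34.4%, all promoter regions 20.8%).

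**Figure D2:**
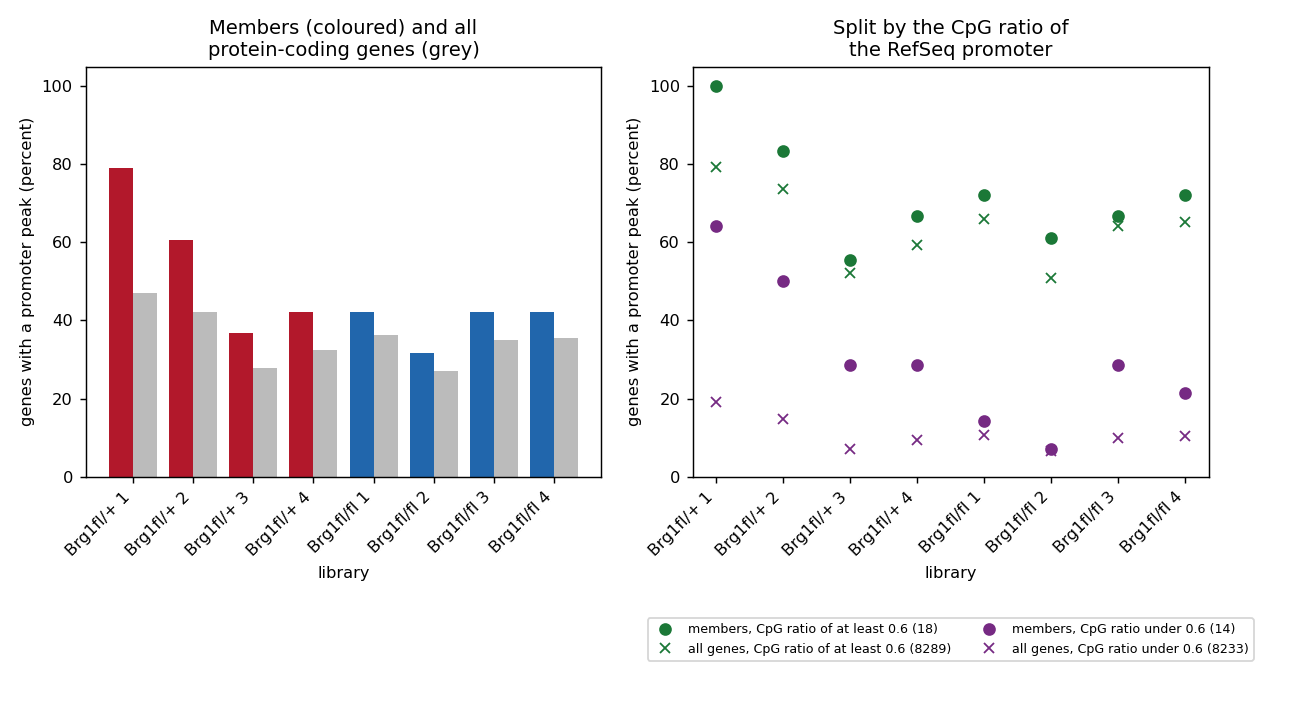
Percent of genes with a promoter peak in each library, for the 38 members (bars in colour, red for Brg1fl/+ and blue for Brg1fl/fl) and all 21951 protein-coding genes (grey bars), and, in the right panel, for the 32 members (circles) and all genes (crosses) matched to a RefSeq promoter, split at a CpG ratio of 0.6. Members lie above all genes in every library, by most in Brg1fl/+ replicates 1 and 2, and the CpG-poor members (purple circles) reach 64.3% in Brg1fl/+ replicate 1 and 7.14% in Brg1fl/fl replicate 2.

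Receptors and receptor kinases were the most evenly detected group. Of the 6 genes, 6, 6, 5 and 6 had a promoter peak in Brg1fl/+ replicates 1 to 4 and 5 in each Brg1fl/fl library. Ifnar1, the signal-transducing chain of the type I receptor, had folds of 16.4, 13.8, 13.9 and 15.4 in Brg1fl/+ and 14.7, 12.3, 13.7 and 14.7 in Brg1fl/fl. These ranges overlapped. Ifnar2, the high-affinity chain, had folds of 9.43, 7.29 and 5.51 in Brg1fl/+ replicates 1, 2 and 4 and of 6.17 in Brg1fl/fl replicate 2, and no peak in the other 4 libraries. Tyk2, the kinase bound to Ifnar1, was missing in Brg1fl/fl replicate 2 only. For interferon gamma, Ifngr1 spanned folds of 14.2 to 16.4 in Brg1fl/+ and 10.2 to 13.9 in Brg1fl/fl, and Ifngr2 spanned 13.4 to 15.9 and 9.25 to 15.3. These are folds before centring, and the median fold of all peaks of a list was 8.86 to 10.1 in Brg1fl/+ and 8.15 to 8.61 in Brg1fl/fl.

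To compare strengths, the log2 fold of each region was centred on the median of its library over the 4593 regions with a peak in all 8 libraries, and genotypes were compared with limma, with p-values adjusted over all regions tested. All differences below are Brg1fl/fl minus Brg1fl/+ on this centred log2 scale. Of the 9 member promoters tested, 0 passed an adjusted p of 0.05 and 1 (Irf1) had an unadjusted p below 0.05, while 5.46% of all 4593 regions passed. In the receptor group the differences were 0.10 ± 0.10 for Ifnar1, -0.043 ± 0.10 for Ifngr1, -0.096 ± 0.12 for Ifngr2 and -0.0028 ± 0.13 for Jak2 (SE, limma adjusted p = 0.579, 0.832, 0.653 and 0.992), each within the spread between libraries. The median difference of the 9 was -0.043, beside 0.021 over the 4132 promoter regions of all genes. Because this fit leaves out promoters missed in any library, a wider fit of the 7963 regions with a peak in at least 2 libraries of each genotype was also used. It covered 15 member promoters, of which 2 passed, Stat2 and Trim21, both lower in Brg1fl/fl, against 7.94% of all regions passing and 5.1% passing with a lower value. A library without a peak gives no fold and drops out of that region's comparison.

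The transcription factors were detected in most libraries, and Stat2 was the one whose strength differed past the threshold in the wider fit. Of 7 genes, 7, 7, 6 and 5 had a promoter peak in the Brg1fl/+ libraries and 6, 5, 6 and 6 in the Brg1fl/fl libraries. Stat2, the STAT that joins Irf9 at the ISRE, had folds of 15.3, 16.6 and 13.6 in Brg1fl/+ replicates 1 to 3 and of 7.85, 9.90 and 9.28 in Brg1fl/fl replicates 1 to 3, with 29 to 60 and 20 to 24 fragments at the summit. Replicate 4 of both genotypes had no Stat2 peak. On the centred scale the values were 0.16, 0.33 and 0.38 against -0.51, 0.096 and -0.25, and the ranges did not overlap. The difference was -0.51 ± 0.15 (SE, 95% interval -0.81 to -0.22, limma adjusted p = 0.0251). It was -0.37 without Brg1fl/fl replicate 1 (adjusted p = 0.140 in limma), and also missed the threshold without Brg1fl/+ replicate 2 (0.0929) or 3 (0.0799) or Brg1fl/fl replicate 3 (0.0562).

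Irf1, an early IRF induced by interferon gamma, had the highest mean centred value of the member promoters in Brg1fl/fl (0.46). Its folds were 15.5, 14.3, 14.1 and 14.3 in Brg1fl/+ and 15.5, 14.5, 13.8 and 14.9 in Brg1fl/fl, and its centred values were 0.19, 0.11, 0.43 and 0.25 against 0.47, 0.65, 0.32 and 0.41. The ranges overlapped. The difference of 0.22 ± 0.10 (SE, 95% interval 0.011 to 0.42) missed the threshold in limma (adjusted p = 0.193). It passed when fragments at the summit replaced the fold (0.46, limma adjusted p = 0.0216) and in replicates 1 and 2 alone (0.45, limma adjusted p = 0.0242), while replicates 3 and 4 alone gave 0.033.

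Irf5, which acts downstream of Toll-like receptors, had centred values of -1.03, -1.001 and -0.26 in Brg1fl/+ and -1.21, -1.40 and -1.16 in Brg1fl/fl, missing in Brg1fl/+ replicate 3 and Brg1fl/fl replicate 2. Its ranges did not overlap, yet the difference of -0.49 (95% interval -0.94 to -0.049) missed the threshold (limma adjusted p = 0.152). Irf7, the IRF that amplifies type I interferon production, had folds of 6.52, 5.65 and 5.22 in Brg1fl/+ replicates 1 to 3 and of 3.69 in Brg1fl/fl replicate 4, near the lower limit of that list. Irf2, Irf3 and Irf9 were open in all 8 libraries with differences of -0.12, 0.0066 and -0.14, none past the threshold (limma adjusted p = 0.642, 0.981 and 0.576). The peak at Irf3 lies at a start site shared with the oppositely oriented Bcl2l12, and cannot be assigned to either gene.

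Nucleic acid sensors had a promoter peak for 4, 2, 0 and 0 of 5 genes in the Brg1fl/+ libraries and 2, 0, 0 and 2 in the Brg1fl/fl libraries. Ifih1, which encodes the RNA sensor MDA5, had a fold of 10.5 in Brg1fl/+ replicate 1 and of 6.73 and 7.68 in Brg1fl/fl replicates 1 and 4. Mavs, the mitochondrial adaptor of the RNA sensors, had folds of 10.8 and 11.2 in Brg1fl/+ replicates 1 and 2 and of 4.62 in Brg1fl/fl replicate 4. Zbp1, a sensor of Z-form nucleic acid, had folds of 6.28 and 5.74 in the same Brg1fl/+ libraries and of 5.22 in Brg1fl/fl replicate 1. These genes were detected in too few libraries to be tested. Ddx58, which encodes RIG-I, had a peak in Brg1fl/+ replicate 1 only, at a fold of 4.83.

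Antiviral effectors, the largest group, had the largest difference in detection. A promoter peak was present for 8, 5, 2 and 4 of 13 genes in the Brg1fl/+ libraries and for 1, 1, 3 and 2 in the Brg1fl/fl libraries. The ranges of these counts overlapped through Brg1fl/+ replicate 3. Of the 9 detected effectors, 6 had a peak in Brg1fl/+ libraries only, beside 17.1% of all detected genes. This share was 37.2% among detected genes with a CpG ratio (defined below) under 0.6, where all of these 6 but Eif2ak2 lay. Bst2, the tetherin that retains budding virions, had folds of 8.13, 9.16, 6.65 and 7.96 in the Brg1fl/+ libraries and of 4.53 in Brg1fl/fl replicate 3, its only Brg1fl/fl peak. Its ISRE pair lies 51 and 57 bp from the summit. Ifit1, which binds viral RNA caps, had folds of 6.95 and 9.40 in Brg1fl/+ replicates 1 and 2 and no peak in the other 6 libraries. Its region also covers a start site of Ifit1bl2.

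Isg20, an RNA exonuclease, had weak peaks of 3.71 and 4.95 in Brg1fl/+ replicates 1 and 4 near an internal start site, and a further one of 4.31 in replicate 1 whose summit lay at -865 bp from the gene's start. Ifit2 (4.35), Oasl1 (4.63) and Eif2ak2 (6.09), the RNA-activated kinase PKR, had a peak in Brg1fl/+ replicate 1 only. Rsad2, the antiviral enzyme viperin, had one in replicate 2 only (7.76). The Ifit2, Oasl1, Eif2ak2 and Rsad2 peaks were 204 to 242 bp wide, narrower than 243 bp, the largest of the lists' minimum widths. Eif2ak2 (204 bp) and Oasl1 (215 bp) were narrower than any peak of the 4 Brg1fl/fl lists, and Ifit2 and Rsad2 (242 bp) narrower than any peak of Brg1fl/fl replicate 1. Over all members, 10 of 84 Brg1fl/+ promoter peaks (11.9%) were that narrow, beside 10.2% of all Brg1fl/+ peaks.

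Samhd1 was the effector open throughout, at folds of 12.0 to 14.4 in Brg1fl/+ and 7.76 to 14.3 in Brg1fl/fl, with a difference of -0.068 (95% interval -0.33 to 0.19, limma adjusted p = 0.782). Adar, the RNA-editing deaminase, had folds of 11.4, 10.7 and 7.62 in Brg1fl/+ replicates 1, 2 and 4 and of 5.51 and 8.77 in Brg1fl/fl replicates 3 and 4. Its region lay at an internal start site, 15656 bp into the gene, and its difference of -0.27 missed the threshold (limma adjusted p = 0.463).

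Among the ubiquitin, ISG15 and PARP regulators, 5, 3, 1 and 1 of 7 genes had a promoter peak in the Brg1fl/+ libraries and 2, 1, 2 and 1 in the Brg1fl/fl libraries. Trim21, the cytosolic antibody receptor and ubiquitin ligase, had folds of 14.2, 14.2 and 9.46 in Brg1fl/+ replicates 1 to 3 and of 7.35 and 5.64 in Brg1fl/fl replicates 1 and 3. The peaks rested on 46, 36 and 16 fragments in Brg1fl/+ and on 21 and 13 in Brg1fl/fl. The centred values of 0.060, 0.096 and -0.14 did not overlap those of -0.61 and -0.97. The difference was -0.80 ± 0.19 (SE, 95% interval -1.18 to -0.41, limma adjusted p = 0.0112). It was -0.75 without Brg1fl/+ replicate 2, where the adjusted p in limma was 0.0655, and without Brg1fl/fl replicate 1 or 3 the region no longer had the 2 Brg1fl/fl peaks that this fit requires.

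Trim25, the ubiquitin ligase that activates RIG-I, was detected in 3 Brg1fl/+ and 4 Brg1fl/fl libraries, with folds of 12.0 to 13.4 and 6.40 to 10.1 and centred values that did not overlap. Its difference of -0.30 (95% interval -0.60 to 0.00048) missed the threshold (limma adjusted p = 0.201). Ranges lay apart and lower in Brg1fl/fl for Stat2, Irf5, Trim21 and Trim25, 4 of 15 members, against 14.1% of all regions of the wider fit. All 4 lacked a peak in at least 1 library, and 0 of the 9 members with a peak in all 8 had ranges apart. Ranges over fewer libraries lie apart more easily, and the 14.1% covers complete and incomplete regions. Usp18, the protease that removes ISG15 and dampens Ifnar2 signalling, had a fold of 11.2 with 31 fragments in Brg1fl/+ replicate 1 and no peak elsewhere. Dtx3l, which forms a complex with Parp9, had folds of 8.66 and 8.04 in Brg1fl/+ replicates 1 and 2 and no peak elsewhere. Parp9 had a fold of 4.45 in replicate 1 only. Both genes share a bidirectional promoter stretch, so each region can serve either gene.

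**Figure D3:**
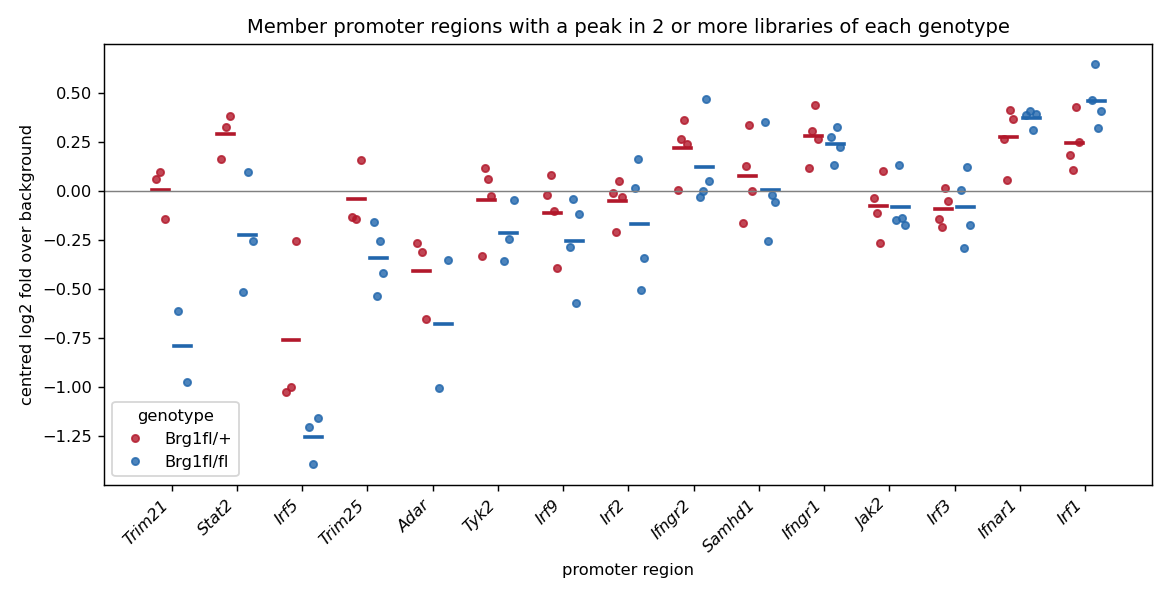
Centred log2 fold over background of the 15 member promoter regions with a peak in at least 2 libraries of each genotype, 1 point per library with a peak, bars at the mean of each genotype. Trim21, Stat2, Irf5 and Trim25, at left, have no overlap between genotypes, and Irf1, at right, has a higher mean in Brg1fl/fl with overlapping points.

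**Figure D4:**
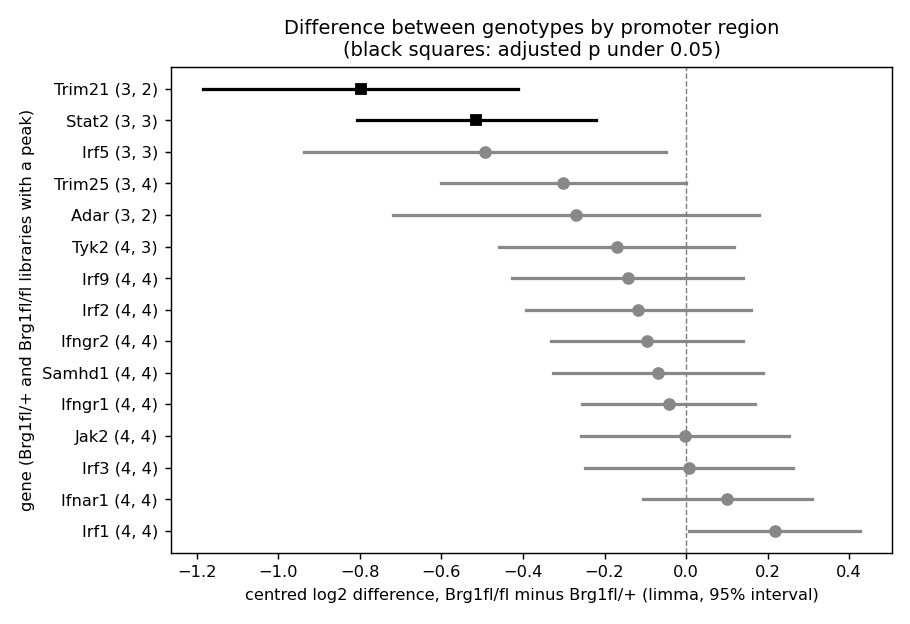
Centred log2 difference, Brg1fl/fl minus Brg1fl/+, with its 95% interval from limma, for the same 15 regions; the numbers after each name are the Brg1fl/+ and Brg1fl/fl libraries with a peak. Trim21 (-0.80) and Stat2 (-0.51) have an adjusted p below 0.05, and the other 13 do not.

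Body peaks were rare. They were found for 4, 1, 0 and 0 members in Brg1fl/+ replicates 1 to 4 and for 0 in every Brg1fl/fl library, while 2.36 to 9.65% of all genes had one in Brg1fl/+ and 2.41 to 4.41% in Brg1fl/fl. Irf2 (fold 5.10) and Parp14 (5.05) had one in Brg1fl/+ replicate 1 only, and the others were the mutual Parp9 and Dtx3l promoter regions. At equal list length no member had a body peak in any library.

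Other sequence features were compared in the same windows of 100 bp on each side of the summits. The GAS letters TTCNNNGAA lay in 8 of 32 member regions (25%), against 3.54% of all promoter regions. The EICE letters GGAANNGAAA, the composite element of ETS factors and IRFs, lay in 4 (12.5%, all 1.35%), and 1 region held both ISRE and EICE. NF-kB letters (GGGANNTTCC) lay in 2 (6.25%, all 1.23%) and AP-1 letters (TGANTCA) in 1 (3.12%, all 2.19%). The ETS letters CCGGAAG, common at housekeeping promoters, lay in 2 (6.25%), against 18% of all. Such a match is a description of the letters, not a measured binding site.

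In the RefSeq promoters (250 bases before to 50 after the start, GRCm38.p6), 32 members were matched by symbol and 12 of them (37.5%) held an ISRE, against 665 of 16522 matched genes (4.02%) and 3.42% of 20150 promoters. The 12 members with an ISRE had a promoter peak in 8, 6, 4 and 2 cases in the Brg1fl/+ libraries and in 4, 2, 4 and 2 in the Brg1fl/fl libraries, and the 20 without one in 19, 16, 10 and 14 and in 11, 10, 12 and 14. Among detected genes, 6 of 9 members with an ISRE (66.7%) and 9 of 19 without one (47.4%) were found in more Brg1fl/+ libraries. Over all genes the shares were 39.4% with and 31.3% without an ISRE.

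The CpG ratio, the number of CpG dinucleotides over that expected from the C and G content, also separated the members. Its median was 0.447 in members with an ISRE and 0.690 in those without (0.385 and 0.608 over all genes). The ISRE and CpG splits therefore overlap, and their parts were not told apart. Housekeeping promoters usually lie in CpG islands, where this ratio is high, and inducible promoters often do not. All 18 members with a ratio of at least 0.6 had a promoter peak in some library, 6 of them (33.3%, all such genes 26%) in more Brg1fl/+ libraries. Of the 14 CpG-poor members, 10 had a peak, 9 of them (90%) in more Brg1fl/+ libraries and none in more Brg1fl/fl libraries, against 54.5% and 10.7% of the 1623 detected CpG-poor genes. Per library, the CpG-poor members with a peak numbered 9, 7, 4 and 4 in Brg1fl/+ and 2, 1, 4 and 3 in Brg1fl/fl. Replicates 3 and 4 of the genotypes thus differed by at most 1 gene, and the excess lay in replicates 1 and 2.

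A further list of 40 interferon pathway genes, of which 37 matched a protein-coding gene, had 24, 17, 6 and 9 genes with a promoter peak in the Brg1fl/+ libraries and 11, 5, 9 and 11 in the Brg1fl/fl libraries. Of 26 detected, 16 were found in more Brg1fl/+ and 2 in more Brg1fl/fl libraries, beside 32.2% and 11.3% of all detected genes. In replicates 3 and 4 the Brg1fl/+ counts (6 and 9) did not exceed the Brg1fl/fl counts (9 and 11). The shares of all genes went the same way there (27.9 and 32.4% against 35.1 and 35.6%). The wider fit tested 10 of their promoters and 2 passed, both lower in Brg1fl/fl, Sp100 (a nuclear body protein) and Ticam1 (the TRIF adaptor of Toll-like receptors), again beside 7.94% of all regions.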

How the data were processed

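ATAC-seq was available for 8 libraries, 4 per genotype. Per the labels and methods, the authors used Bowtie2 for alignment (build mm10) and ran MACS2 library by library (versions not given in the sources used here), and deposited narrowPeak lists with the fold enrichment, a ratio of summit pileup to local background, the −log10 p-value and q-value, and a display score (unused), filtered at a q of 0.05 (lowest −log10 q 1.31). Whether read ends were shifted for the transposase is not given in the sources used here. The lists omit everything below threshold, so missing peaks have no value. Total reads are not in the lists; fragments at each summit and the background were recovered from fold and p (99.7 to 99.8% of peaks gave a whole number within 0.002 of the deposited −log10 p).

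Peaks overlapping by 1 bp were joined, and promoters were taken from GENCODE M21. The main test was limma (3.58.1, R 4.3.3, eBayes with trend) on the centred log2 fold, with Benjamini-Hochberg adjustment over all regions tested, checked on simulated data. The simulation took libraries as independent and missing peaks as unrelated to the planted change. It therefore does not cover grouped replicates or peaks missing because they were weak. Detection counts and shares had no test. A marker gene of the B cell list is not reported here. Named genes were members past the threshold, members whose detection differed by 2 or more libraries, the 5 largest differences in each direction, the 5 highest mean centred folds, members without a promoter peak, and members with an ISRE within 100 bp of the summit. Members and lists were chosen with earlier results of these data known. Alternatives were stricter q, equal list length, joining distance, coverage, promoter definition, recovered fragments, centring, block, pair means and leaving out libraries.

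The main fit did not pair libraries across genotypes by replicate number, and the labels state no such pairing. The variance of counts between libraries over that expected from sampling was 0.759 to 1.18 for pairs within Brg1fl/+, 0.797 to 0.866 within Brg1fl/fl and 0.995 to 1.79 between genotypes. This ratio was taken over 4126 promoter regions with a peak in all 8 libraries, from counts recovered at the summits. Most pairs within a genotype gave a ratio below 1, so 1 is not a firm level for sampling noise here. The ratio cannot decide whether libraries of a genotype differ by more than sampling noise. The files do not show whether they are separate cultures or technical repeats. The 4 were analysed as the labels number them, and the means of replicates 1 and 2 and of 3 and 4, as the list names group them, were an alternative with 2 values per genotype.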

Additional observations from a re-analysis of the deposited data

Results flagged for a closer look

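Of 26 groups of 4 libraries examined among the member results, 3 held a library far from the other three by Dixon's test, a rule that chance meets in about 1 in 20 groups. Brg1fl/fl replicate 2 had 12 members with a promoter peak, where each other Brg1fl/fl library had 16, and it was also the list with the fewest peaks (6271). The Ifngr2 promoter had a centred log2 fold of 0.47 in Brg1fl/fl replicate 3, where the others lay between -0.031 and 0.051. The Jak2 promoter had one of 0.13 in Brg1fl/fl replicate 2, where the others lay between -0.17 and -0.14.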

How the results depend on the processing

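The difference in members with a promoter peak and the median difference of member promoters kept their direction under the thresholds, list lengths, joining distances and promoter definitions tried, and most differences of single promoters stayed below the threshold. The exceptions follow, and their causes were not tested. At the recovered backgrounds a peak needed at least 5 to 8 fragments.

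Of the 9 member promoters tested, 0 passed; 1 (Irf1) passed in replicates 1 and 2 only and 1 (Irf1) with recovered fragments, and 2 of 15 passed in the wider fit. Regions passing over the whole table numbered 251 (99 lower, 152 higher in Brg1fl/fl). They were 621 (168, 453) in replicates 1 and 2 only, 31 (17, 14) in replicates 3 and 4 only, 581 (160, 421) with recovered fragments, 73 (31, 42) with pair means, 136 (61, 75) without the trend and 632 (406 lower) in the wider fit, with 99 higher at equal list length. Leaving out 1 library gave 78 to 418 (30 to 129 lower, 48 to 289 higher), the lowest without Brg1fl/+ replicate 2 and the highest without Brg1fl/+ replicate 3.

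The mean difference in members with a promoter peak was -12.5 genes in replicates 1 and 2 only and 1.0 genes in replicates 3 and 4 only. The difference in members with a body peak was -1.25 genes, and 0 at equal list length and in replicates 3 and 4 only. The ISRE share of member promoter regions was 34.4%, 43.8% within 250 bp of the summit (all promoter regions 4.17%), 40.6% over the whole region (4.55%) and 20% at equal list length (1.13%). Member promoter regions detected in a smaller share of Brg1fl/fl libraries numbered 19, 12 to 21 when 1 library was left out, 7 at equal list length and 3 in replicates 3 and 4 only. Those in a larger share numbered 2, 2 to 4 when 1 library was left out (4 without Brg1fl/+ replicate 1 or 2), 4 among peaks of at least 243 bp (an alternative chosen after seeing the data), 5 in replicates 3 and 4 only, 0 in replicates 1 and 2 only and 0 at a −log10 q of at least 10. The shares of all promoter regions under these alternatives are not given here.

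The sign turned for promoters with small differences, none past the threshold. In replicates 1 and 2 only, the difference was 0.038 for Ifngr1, 0.11 for Jak2, 0.24 for Irf2 and 0.11 for Samhd1, and in replicates 3 and 4 only it was -0.028 for Ifnar1. Jak2 was at 0.0044 with recovered fragments. Irf3 was at -0.029 at a −log10 q of at least 10, at -0.0029 at equal list length and at -0.017 among peaks of at least 243 bp. Leaving out 1 library moved Ifngr1 between -0.098 and 0.026, Jak2 between -0.057 and 0.061, Irf3 between -0.061 and 0.093 and Samhd1 between -0.18 and 0.036. The median difference of the members was 0.065 in replicates 1 and 2 only.

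Replicate numbers are shared by the genotypes, and deviations of same-numbered libraries correlated between -0.091 and 0.013. How much of these deviations is sampling noise is not known, so the correlations cannot decide whether same-numbered libraries were handled together. With a replicate block, 215 regions passed, the Stat2 difference was -0.51 (limma adjusted p = 0.0776), the Trim21 difference -0.75 (0.0844) and the Adar difference 0.30. With pair means in the wider fit, chosen after seeing the data as were all its alternatives, the limma adjusted p was 0.00786 for Stat2 and 0.00741 for Trim21. Where 1 library of a pair had no peak, the mean was the value of the other. For Stat2, replicate 3 thus stood alone for replicates 3 and 4 in both genotypes. For Trim21, only Brg1fl/+ replicates 1 and 2 were averaged. These values therefore do not show that averaging strengthens either call. Leaving out 1 library gave adjusted p from 0.0132 to 0.140 for Stat2 and from 0.0124 to 0.0655 for Trim21.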

Other observations

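The strength of the Usp18 peak set it apart among members found in 1 library. In Brg1fl/+ replicate 1, 5080 regions had a fold at least as high as the 11.2 at Usp18, and 48 of them (0.945%) had no peak in Brg1fl/+ replicate 2. Among the 65 that were also no wider than the 277 bp of the Usp18 peak, 7 (10.8%) were missing there. Rsad2 was the converse case, with a peak of fold 7.76 in Brg1fl/+ replicate 2. Of 7428 regions of that library with at least this fold, 44 (0.592%) had no peak in replicate 1, and of the 293 that were also no wider than 242 bp, 12 (4.1%). For the other members with a promoter peak in Brg1fl/+ replicate 1 only (Ddx58, Ifit2, Oasl1, Eif2ak2 and Parp9), 11.3 to 22.9% of regions as strong were missing in replicate 2, and 44.8 to 73% of those that were also no wider.

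The ISRE letters near the summits lay close to them in Usp18 (9 and 15 bp) and Ifit1 (13 and 32 bp) and farther away in Irf2 (92 bp), a promoter open in all 8 libraries.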
